A study of Drosophila melanogaster with 216 samples.

Results

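The Drosophila genome encodes a family of glutathione S-transferases (Gst genes) and a family of UDP-glycosyltransferases (Ugt genes), and both were described here across sex, age, larval food and adult food. Members were all probe sets that the platform annotation pairs with 1 gene whose current symbol belongs to the numbered delta, epsilon, sigma, theta, omega or zeta Gst genes or to the numbered Ugt genes. This gave 71 probe sets of 69 genes out of 18769 probe sets tested, with 36 probe sets for 34 Gst genes and 35 probe sets for 35 Ugt genes. GstE9 and GstO2 each had 2 probe sets, and GstE8 was the 1 gene of these families in the annotation that was not measured by a member probe set.

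Whole bodies of virgin Drosophila melanogaster were hybridised to Affymetrix arrays, with 5 flies pooled per array and 4 arrays for each of 54 groups, 216 arrays in all. Larvae were reared on 0.25SY, 1SY or 2.5SY food, and newly eclosed adults were divided over the same 3 foods in every combination. The 1SY food is the standard laboratory food of sugar and yeast, and the foods differed only in the amount of these 2 components, the 0.25SY food being poorer and the 2.5SY food richer by the factor in its name. Females and males were sampled at 1 day after eclosion, at middle age, when 10% of the cohort had died, and at old age, when 90% had died. Age therefore means a point on the survival curve, so that flies of 1 age class on different foods need not be equally old in days, and 1-day-old flies had eaten adult food for at most a day. Nothing in the labels states that the 4 pools of a group came from separate cultures, so that the p-values measure the spread between pools of flies.

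Glutathione S-transferases join the tripeptide glutathione to reactive compounds, among them plant toxins, insecticides and the products of lipid peroxidation. UDP-glycosyltransferases attach a sugar from a UDP-sugar donor to small lipophilic molecules, which makes them soluble enough to be excreted. In insects both families are known for work in the midgut, fat body and Malpighian tubules, and many of their genes lie side by side in tandem arrays. Thus all 11 GstD genes were neighbours on chromosome arm 3R, 10 GstE genes were neighbours on 2R, of which 9 were measured, and 10 Ugt genes from Ugt35C1 to Ugt303A1 were neighbours on 3R. Smaller groups were the 3 GstO genes on 3L, Ugt36F1 and 2 more Ugt36 genes on 2L, and Ugt303B1, Ugt303B2 and Ugt303B3 on 3R. Genes within such a group are alike in sequence, and whether a probe set also reads a near copy was not tested. The probe sets of GstS1, GstZ2, Ugt37D1, Ugt36E1 and Ugt50B3 carry a suffix that marks probes shared by several transcripts or genes.

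All values are log2 values of the robust multi-array average (RMA), on which a difference of 1 is a doubling, and levels are compared only within a probe set. They ran from 2.90 to 15.09 over the whole table, and 5 member probe sets had a mean below 5, close to background (GstD4, GstD6, Ugt35D1, Ugt37E1 and Ugt49B2). A probe set was called changed when its p-value in limma, adjusted by Benjamini-Hochberg over all 18769 probe sets, was below 0.05. Where the 3 foods were tested together by an F-test, the difference and direction given are those of 2.5SY minus 0.25SY unless another pair is named.

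3 arrays of old males stood apart from their labels. In the array labelled larval 0.25SY, adult 2.5SY, replicate 1 the testis markers averaged 5.68 and the eggshell and yolk markers 12.88, against 9.38 to 10.07 and 5.91 to 8.62 in the 33 other old male arrays, and across probe sets its correlation was 0.837 with its own group and 0.997 with a group of old females. The array labelled larval 1SY, adult 0.25SY, replicate 1 had raised eggshell (9.39) and female germline (9.95) levels with a testis level of 8.87. The array labelled larval 0.25SY, adult 1SY, replicate 3 had a correlation of 0.997 with 1 of the male groups of day 1, but 0.975 with its own group. Results on later-age males are given with all arrays, and their counts of calls on age and adult food are given without these 3 as well. Among females, the middle-aged array of larval 2.5SY, adult 0.25SY, replicate 1 had the lowest female germline level, 7.16, and replicate 3 of that group had 9.50, while all but 1 of the other middle-aged female arrays lay between 10.28 and 11.43. The measured sex contrasts depend on scaling, because the median of an array was higher in males than in females by 0.46 at day 1, 0.48 at middle age and 0.55 at old age.

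Ugt36F1, a UDP-glycosyltransferase of chromosome arm 2L, had its highest median in old males, rose with age, was higher on both richer adult foods than on 0.25SY and, in later-age males but not under every alternative, differed with larval food. In females its log2 level had a lowest, median and highest value of 5.54, 6.05 and 6.39 over the 36 arrays of day 1, of 5.64, 6.11 and 6.66 at middle age and of 5.72, 6.53 and 7.26 at old age. In males these values were 6.39, 6.75 and 7.11 at day 1, 6.18, 6.99 and 8.16 at middle age and 6.51, 7.33 and 8.40 at old age. Male and female arrays did not overlap at day 1, where the highest female and the lowest male array both round to 6.39, and overlapped at the later ages, where the medians kept the same order. The male level exceeded the female level by 0.71 ± 0.06 (SE; 1.63-fold, adjusted p = 4.5e-23) at day 1, by 0.91 at middle age and by 0.84 at old age. These values and the day 1 separation are uncentred. Array medians were themselves higher in males by 0.46, 0.48 and 0.55 at these ages, so that the size of the differences depends on scaling. With arrays centred on their medians Ugt36F1 was still called higher in males at day 1. From middle to old age Ugt36F1 rose by 0.43 ± 0.06 in females (adjusted p = 2.24e-08) and by 0.36 ± 0.07 in males (adjusted p = 2.69e-05), and the difference between these rises, -0.07, did not pass (adjusted p = 0.575).

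Adult food moved Ugt36F1 upward in both sexes. Over the 24 later-age female arrays of each food, the lowest, median and highest values were 5.64, 6.04 and 6.56 on 0.25SY, 5.78, 6.44 and 7.10 on 1SY and 5.88, 6.52 and 7.26 on 2.5SY, so that the foods overlapped widely. Males had 6.18, 6.92 and 7.73 on 0.25SY, 6.63, 7.40 and 8.40 on 1SY and 6.59, 7.28 and 8.08 on 2.5SY. Compared with 0.25SY, the level on 1SY rose by 0.36 ± 0.07 in females (adjusted p = 2.52e-05) and by 0.64 ± 0.09 in males (adjusted p = 1.7e-07), a rise larger in males by 0.28 (adjusted p = 0.0181). On 2.5SY it rose by 0.51 in females (adjusted p = 7.6e-08) and 0.40 in males (adjusted p = 0.0007), and here the sexes' difference of -0.11 did not pass (adjusted p = 0.453). In females the food difference changed with age (adjusted p = 0.0202): the medians on 0.25SY and 2.5SY were 5.84 and 6.13 at middle age and 6.27 and 6.98 at old age. At day 1 the test over the 3 adult foods did not pass in either sex (adjusted p = 0.288 in females and 0.161 in males).

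Ugt36F1 was also 1 of 2 members called for larval food in later-age males with all arrays, a count that was 5 without the 3 old male arrays and 0 with blocks of the arrays' serial numbers. At old age, males reared on 0.25SY, 1SY and 2.5SY had medians of 7.15, 7.54 and 7.72, with ranges of 6.67 to 7.46, 6.51 to 8.16 and 7.11 to 8.40, and at middle age the medians were 6.83, 7.21 and 7.20. The ranges overlapped throughout. Over both ages the level after a 2.5SY larval diet exceeded that after 0.25SY by 0.48 ± 0.09 and that after 1SY exceeded it by 0.35 (adjusted p over the 3 foods = 0.0113). The call of Ugt36F1 was lost with serial number blocks (0.41, adjusted p = 0.071), without replicate 2 (adjusted p = 0.169) and without replicate 4 (adjusted p = 0.0954), and the adjusted p was 0.00698 without the 3 old male arrays. No such difference was called in later-age females, where 2.5SY and 0.25SY differed by 0.02 (adjusted p = 0.941), or at day 1, where it was -0.19 in females (adjusted p = 0.153) and 0.01 in males.

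**Figure D1:**
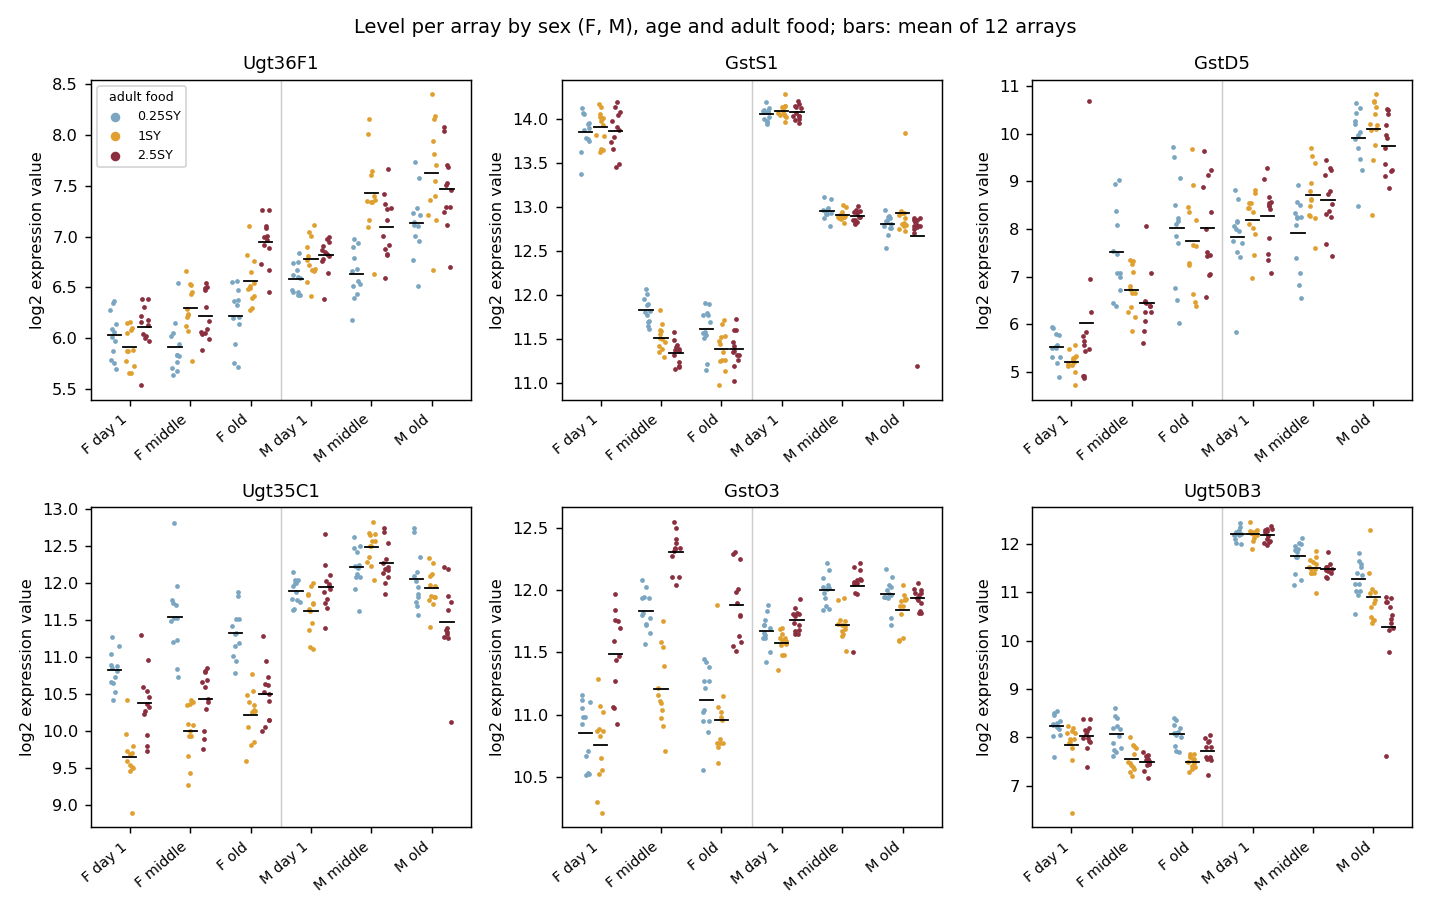
Log2 RMA level of 6 members (Ugt36F1, GstS1, GstD5, Ugt35C1, GstO3, Ugt50B3) in every array, by sex, age and adult food; each point is 1 array and each bar the mean of the 12 arrays of that sex, age and food. Ugt50B3 lies higher in males, GstS1 is highest at day 1 in both sexes, and Ugt35C1 is lower on 1SY than on 0.25SY in females but not in males.

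Between day 1 and middle age most members of both families changed, mainly upward. In females 45 of the 71 probe sets rose and 12 fell (25 and 5 of Gst, 20 and 7 of Ugt), where 25.7% of all probe sets rose and 35.3% fell, and the median difference was 0.23 over the members and -0.03 over all probe sets. In males 38 rose and 19 fell (21 and 6 of Gst, 17 and 13 of Ugt), against 37.6% and 34.8% of all probe sets, with medians of 0.21 and 0.00. The females and males share no arrays, and 32 probe sets rose in both sexes, 10 fell in both, and 5 went in opposite directions: Ugt37C2, Ugt305A1, Ugt303B2 and Ugt37D1 rose in females and fell in males, and Ugt316A1 fell in females and rose in males. The share of all probe sets with such joint calls was not counted.

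GstS1, the single sigma-class gene, known in flies as an abundant protein of the indirect flight muscle that acts on lipid peroxidation products, had the largest fall of all members in females. Its lowest, median and highest values were 13.37, 13.90 and 14.19 at day 1 and 11.16, 11.54 and 12.07 at middle age in females, and 13.94, 14.08 and 14.28 against 12.78, 12.91 and 13.11 in males. In neither sex did an array of 1 age reach the range of the other. GstS1 fell by 2.31 ± 0.04 in females (4.96-fold, adjusted p = 4.44e-69) and by 1.15 in males. Male and female levels were thus 0.20 apart at day 1 (male minus female), a sign that turned to -0.26 when arrays were centred on their medians, and 1.36 apart at middle age and 1.34 at old age. Muscle markers fell along with GstS1, in 10 of 10 cases in each sex (median differences of -2.14 in females and -1.93 in males). Their mean level had a lowest, median and highest value of 12.89, 13.26 and 13.61 at day 1 and of 9.98, 10.92 and 11.75 at middle age in females, and of 13.65, 13.73 and 13.84 and then 11.49, 11.71 and 12.10 in males. Eggshell and yolk markers fell in 15 of 15 cases in females (-2.28), and in males testis markers fell in 14 of 17 (-0.58) and accessory gland markers in 9 of 11 (-0.59). The part of these tissues in the changes of GstS1 and the other members between day 1 and middle age was not tested. The old male arrays at 11.19 and 13.84, far from the 12.53 to 12.97 of all others, are the arrays labelled larval 0.25SY, adult 2.5SY, replicate 1 and larval 0.25SY, adult 1SY, replicate 3.

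Few other members separated the 2 ages completely. With GstS1 counted, males had 3 probe sets separated upward and 3 downward, while females had 1 each way. How common such separation is over all probe sets was not counted. The brighter probe set of GstE9 in females ran from 10.72 to 11.97 (median 11.32) at day 1 and from 12.01 to 13.16 (median 12.60) at middle age, a rise of 1.28. In males Ugt302E1 rose from a range of 5.26 to 6.75 (median 5.88) to one of 6.96 to 8.45 (median 7.95), a difference of 2.01 ± 0.08 and the largest rise of any member in either sex (4.03-fold, adjusted p = 1.82e-37). Male GstZ2, of the zeta class, whose members in other animals take part in tyrosine breakdown, ran from 7.43 to 8.29 at day 1 and from 8.73 to 9.91 at middle age, and rose by 1.45. Male Ugt302C1 ran from 10.40 to 10.90 and then from 10.91 to 11.49. In the opposite direction, male GstD7 fell from a range of 7.29 to 8.34 to one of 5.89 to 7.13 (by 1.28), and male GstE13 fell from 9.59 to 10.31 to 8.46 to 9.28 (by 1.15).

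Among the groups of neighbouring genes, in females all but 1 of the 10 probe sets of the GstE group rose and none fell, and 8 of the 10 Ugt genes from Ugt35C1 to Ugt303A1 rose and none fell. In males 8 of these Ugt genes rose and 1 fell, and all 4 GstO probe sets rose. GstD9 rose by 1.45, GstD5 by 1.31 and GstD2 by 1.12 in females. GstD5 is among the least stable of these, because 1 female array of day 1 stood at 10.68 when the next highest stood at 6.95 and the median was 5.45. In females Ugt302E1 also rose by 1.04, Ugt49B1 by 0.93, Ugt303B3 by 0.84 and Ugt305A1 by 0.76, and GstE13 fell by 0.55, GstD7 by 0.47 and Ugt36D1 by 0.45. In males GstD2 rose by 1.46, GstE9 by 1.04, GstD8 by 1.01 and Ugt49C1 by 0.90, while Ugt37A3 fell by 1.49, GstE14, which serves ecdysteroid synthesis in the larval ring gland, fell by 1.17, Ugt37A2 by 1.15, Ugt301D1 by 0.85 and Ugt50B3 by 0.62. GstD1, the delta-class gene known for its action on DDT and widely used as a reporter of oxidative stress, rose by 0.18 in females and 0.44 in males, and Ugt36F1 rose by 0.32 in males and differed by 0.12 in females (adjusted p = 0.0549).

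From middle to old age 6 of the 11 delta-class genes, GstD1 to GstD6, rose in both sexes, although GstD4 and GstD6 lie close to background. Ugt genes fell more often than they rose. In females 24 of the 71 probe sets rose and 24 fell, against 24.2% and 21.1% of all probe sets. The split differed by family, with 17 rises and 8 falls among the 36 Gst probe sets (18 and 5 when arrays were centred on their medians) and 7 rises and 16 falls among the 35 Ugt probe sets, and with medians of 0.10 and -0.14 beside 0.00 over all probe sets. In males 12 members rose and 32 fell, against 22.7% and 18.5%, with 10 rises and 16 falls in Gst, 2 and 16 in Ugt, and medians of -0.09 and -0.13 beside -0.02. Without the 3 old male arrays that stood apart, 14 rose and 33 fell, against 24.6% and 23.4%. Old and middle-aged arrays overlapped for every member in both sexes with all arrays. Overlap in males was not counted without the 3 old male arrays.

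The delta-class genes on 3R gave 8 rises and 1 fall in females and 7 rises and 2 falls in males. GstD5 had the largest rise in each sex. Its lowest, median and highest values moved from 5.60, 6.68 and 9.03 to 6.03, 7.92 and 9.72 in females and from 6.54, 8.43 and 9.71 to 8.30, 10.05 and 10.83 in males. GstD5 rose by 1.04 ± 0.21 in females (2.06-fold, adjusted p = 4.24e-05) and by 1.51 ± 0.15 in males (2.85-fold, adjusted p = 1.38e-12). GstD2, which in flies is involved in the handling of dietary isothiocyanates, went from 7.05, 8.41 and 10.23 to 7.99, 8.96 and 11.65 in females and from 7.24, 8.28 and 9.75 to 7.61, 9.13 and 11.43 in males, a rise of 0.74 ± 0.18 and of 0.82 ± 0.15. GstD8 rose by 0.75 in females, to a median of 7.31, and GstD3 by 0.67 and GstD9 by 0.52 in males. GstD1 rose by 0.14 in each sex (adjusted p = 0.000191 in females and 3.35e-05 in males), with medians of 13.76 and 13.89 in females and 13.80 and 13.94 in males. The 1 member of the group that fell in both sexes was GstD11, by 0.28 in females and 0.37 in males, and in males GstD7 fell by 0.43 as well.

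Among the falls, Ugt37B1 was the largest in each sex. In females its lowest, median and highest values were 6.52, 7.55 and 9.00 at middle age and 6.40, 6.90 and 7.97 at old age, and in males they were 8.28, 9.75 and 10.34 and then 7.29, 8.49 and 9.19. Ugt37B1 fell by 0.73 ± 0.08 in females (1.66-fold, adjusted p = 6.08e-11) and by 1.07 ± 0.09 in males (2.10-fold, adjusted p = 9.77e-15). GstE4 fell alike in the sexes, by 0.55 ± 0.07 in females, where its median went from 6.53 to 6.07, and by 0.53 ± 0.09 in males, where it went from 6.50 to 5.95. In females Ugt37D1 fell by 0.67, Ugt37A2 by 0.64, Ugt35B1 by 0.51 and GstO3 by 0.46. In males Ugt50B3 fell by 0.77 ± 0.11 (0.70 without the 3 arrays), Ugt35C1 by 0.50, Ugt37A3 by 0.45 and GstE9, at its dimmer probe set, by 0.43. GstS1 fell by 0.10 in females, and in males its difference of -0.12 did not pass with all arrays (adjusted p = 0.0708) and was -0.09 without the 3 arrays (adjusted p = 1.92e-05).

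The sexes shared some of these directions and parted on others. Rises in both sexes were called for 8 probe sets, which were GstD1, GstD2, GstD3, GstD4, GstD5, GstD6, GstT1 and Ugt36F1, although GstD4 and GstD6 are dim. Falls in both sexes were called for 15, among them Ugt37B1, Ugt35B1, Ugt37D1, Ugt304A1, GstD11, GstE2, GstE4 and GstE12. A further 6 rose in females and fell in males, namely both probe sets of GstE9, GstE7, GstT3, GstT4 and Ugt37C1, and 0 did the reverse. Joint calls of these kinds over all probe sets were not counted. Without the 3 old male arrays the rises in both sexes numbered 9, with Ugt36A1 added, the falls 16, with GstS1 added, and the 6 that rose in females and fell in males were unaltered. The brighter probe set of GstE9 had a median of 12.60 at middle age and 12.90 at old age in females and of 13.58 and 13.42 in males, with overlapping ranges. The difference between the sexes' age changes was itself called for 32 members (13 with the more positive change in males and 19 in females, or 9 and 25 when centred), against 28.9% of all probe sets. The smallest p-values were those of GstT4 (male minus female -0.51, adjusted p = 5.27e-13), GstO3 (0.46, adjusted p = 3.91e-11) and Ugt50B3 (-0.82, adjusted p = 1.53e-10).

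**Figure D2:**
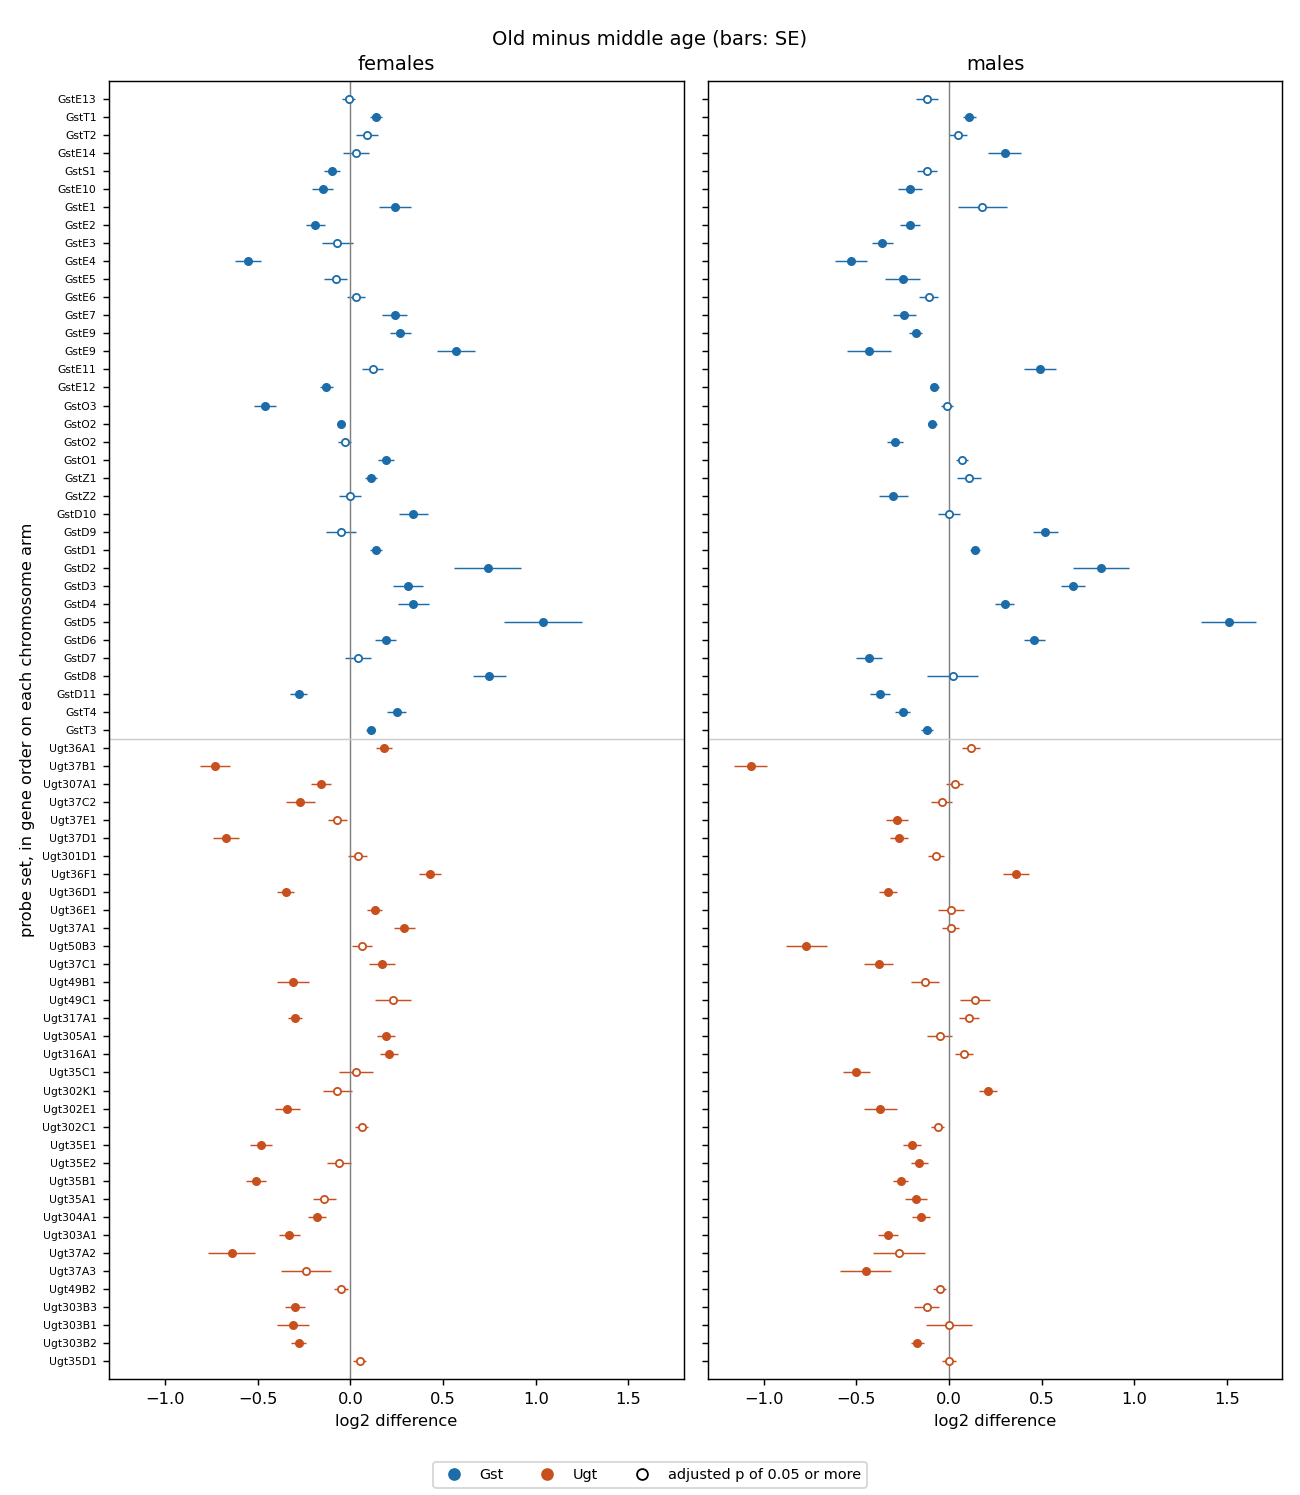
Old minus middle-age difference (log2) of the 71 member probe sets in gene order, females and males in separate panels, as points with their SE; filled points passed an adjusted p of 0.05, blue is Gst and orange Ugt. The delta-class genes lie mostly above 0 in both panels, with GstD5 at 1.04 and 1.51, and Ugt37B1 is the lowest point in each panel at -0.73 and -1.07.

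Marker genes of the midgut fell with age as well, 10 of 11 in females (median difference -0.92) and 10 of 11 in males (-0.73). The muscle markers fell in 10 of 10 cases in females (-0.57), and in males the accessory gland markers fell in 7 of 11 (-0.54), or in 9 of 11 (-0.39) without the 3 old male arrays, 1 of which had an accessory gland level of 4.85. Fat body markers rose in 2 of 4 cases and fell in 1 in females (0.60), where the median of their mean level went from 10.97 to 11.77, and in males 1 rose and 2 fell (-0.17), where it went from 12.74 to 12.19. Not all lists fell in males. Without the 3 old male arrays, Malpighian tubule markers rose in 3 of 5 cases and fell in 0 (0.15). Muscle markers rose in 4 of 10 and fell in 5 (-0.02). Female germline markers rose in 6 of 12 (0.14), and eye and neuron markers fell in 4 of 8 (-0.13). In whole bodies a smaller share of a tissue and less RNA per cell of it cannot be told apart, and the part of these tissues in the members' age changes was not tested.

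Adult food gave more calls among the members in females than in males, and in females most of them were lower on 1SY and on 2.5SY than on 0.25SY. In later-age females 47 of 71 probe sets were lower and 7 higher on 1SY than on 0.25SY, against 25.0% and 27.8% of all probe sets (52.8% in either direction). The median difference was -0.22 over Gst (20 lower, 5 higher), -0.43 over Ugt (27 lower, 2 higher) and 0.00 over all probe sets. The median of the arrays was itself lower on 1SY by -0.11, and with arrays centred on their medians 39 members were lower and 13 higher, against 17.3% and 51.9% of all probe sets, and 46 members were called with the same sign in both settings. In males only 10 members were higher and 4 lower, against 4.37% and 3.91%, and without the 3 old male arrays 16 were higher and 8 lower, against 7.89% and 8.23%. Calls gained without those arrays included rises of Ugt302C1, GstD1 and GstE7 and a fall of GstE13. The contrast of 1SY with 0.25SY differed between the sexes for 50 members, 46 of them more positive in males, against 46.7% of all probe sets called in either direction. Among the Gst probe sets 22 were more positive in males and 3 in females, or 14 and 5 when centred.

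All 10 neighbouring genes from Ugt35C1 to Ugt303A1 were lower in females on 1SY than on 0.25SY, and 0 of the 10 were called in males with all arrays, whereas Ugt302C1 was called higher on 1SY in males without the 3 old male arrays. Ugt35C1 had lowest, median and highest values of 10.72, 11.45 and 12.80 on 0.25SY and of 9.27, 10.17 and 10.76 on 1SY in females, so that the ranges met only at their edges. In males the values were 11.56, 12.10 and 12.74 on 0.25SY and 11.40, 12.24 and 12.82 on 1SY, which overlapped almost fully. Ugt35C1 fell by 1.32 ± 0.12 in females (2.5-fold, adjusted p = 1.28e-14), and the contrast was 1.40 higher in males (adjusted p = 1.99e-17). The 3 Ugt303B genes and the pair Ugt37A2 and Ugt37A3 were lower in females too, and Ugt303B1 fell by 0.93 and Ugt302E1 by 0.90. Ugt49B1 went from 9.63, 10.59 and 11.71 on 0.25SY to 9.02, 9.46 and 10.25 on 1SY in females and fell by 1.14 ± 0.10 (2.21-fold), while male medians were 10.65 and 10.68.

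Of the Gst genes, 7 of the GstD group and 7 probe sets of the GstE group were lower on 1SY in females and 0 of either group were higher. GstZ2 had values of 7.81, 8.90 and 9.40 on 0.25SY and 7.54, 8.0 and 8.44 on 1SY in females and fell by 0.81 ± 0.07 (1.75-fold), whereas in males the values were 8.63, 9.13 and 9.56 on 0.25SY and 8.25, 9.59 and 9.91 on 1SY and it rose by 0.30. GstT4, of the theta class, fell by 0.79 ± 0.06 in females, from a median of 12.31 to one of 11.42, and the contrast was 0.97 higher in males (adjusted p = 1.21e-24), where the medians were 12.68 and 12.89. GstD8 fell by 0.78 ± 0.11 in females, from a median of 7.90 to 6.87, and rose by 0.79 ± 0.17 in males, from 7.90 to 8.74. GstE3 fell by 0.70 and GstS1 by 0.27 in females. GstD1 fell by 0.09 in females, a difference that was 0.02 (adjusted p = 0.72) when arrays were centred.

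Few members were higher on 1SY in females. Ugt316A1 rose by 0.51 ± 0.06 (1.42-fold, adjusted p = 1.05e-10), from 9.58, 10.65 and 11.47 on 0.25SY to 10.75, 11.22 and 11.45 on 1SY, so that the 1SY arrays filled only the upper part of the 0.25SY range. GstO1 rose by 0.41 ± 0.05 from a median of 10.70 to 11.04, GstT2 and GstZ1 by 0.25 each, and GstE13 by 0.16. Of the 47 members that were lower on 1SY in females, 31 were higher in males than in females at day 1 and 11 lower, and of the 7 that were higher on 1SY, 2 were higher and 5 lower in males. Over all 71 members the day 1 split was 37 higher and 26 lower in males. These 2 comparisons share no arrays, but with centred arrays in the sex contrast the split of the 47 became 21 higher and 23 lower, beside 25 and 43 over all 71 members. The matching split of all probe sets was not counted. In males the calls on 1SY beside GstD8 and Ugt36F1 included rises of 0.55 in GstE9 at its dimmer probe set, 0.39 in Ugt37C1, 0.34 in Ugt37B1 and 0.22 in Ugt36A1, and falls of 0.70 in Ugt37A3, 0.68 in Ugt37A2, 0.41 in GstE10 and 0.21 in GstO3.

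Markers of other tissues moved together with the female food contrast. On 1SY against 0.25SY the eggshell and yolk markers rose in 15 of 15 cases (median difference 2.65) and the female germline markers in 11 of 12 (0.81), while muscle markers fell in 8 of 10 (-0.72), eye and neuron markers in 8 of 8 (-0.63), antennal markers in 5 of 5 (-0.56) and midgut markers in 8 of 11 (-0.35). Of the 5 Malpighian tubule markers 1 rose and 3 fell (-0.32), and of the 4 fat body markers 1 rose and 2 fell (-0.05). In middle-aged females the mean level of the eggshell and yolk markers had a lowest, median and highest value of 7.45, 9.88 and 13.14 on 0.25SY and 12.16, 13.35 and 13.94 on 1SY, and that of the muscle markers 10.92, 11.49 and 11.75 and then 9.98, 10.35 and 11.07. The part of tissue composition in the members' medians of -0.22 and -0.43 was not tested. In males 0 markers of the female germline, eggshell, muscle, eye or antenna were called on 1SY with all arrays, and without the 3 old male arrays 4 of 10 muscle markers (-0.09) and 3 of 8 eye and neuron markers (-0.11) fell. With all arrays 8 of 11 midgut markers (-0.31) and 2 of 5 Malpighian tubule markers (-0.16) fell in males. Without the 3 arrays 8 of 11 accessory gland markers (-0.23) and 3 of 5 Malpighian tubule markers (-0.16) fell, and 1 of 12 female germline markers rose.

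The richest food lowered fewer members. On 2.5SY compared with the same 0.25SY arrays, females had 32 members lower and 16 higher, against 19.1% and 26.0% of all probe sets, with a median of -0.14 over both families. Between the 2 richer foods, 30 members were higher on 2.5SY than on 1SY in females and 5 lower, against 15.5% and 14.4% of all probe sets, with a median of 0.13 beside -0.01 (27 higher and 11 lower when centred). GstO3 led these with 1.02 ± 0.07, followed by Ugt37B1 with 0.84, Ugt49C1 with 0.73, GstE3 with 0.68 and Ugt49B1 with 0.57, and GstE13 was lower by 0.29. The omega class stood on the higher side with all 4 of its probe sets. GstO3 had lowest, median and highest values of 10.55, 11.51 and 12.08 on 0.25SY, 10.61, 11.03 and 11.88 on 1SY and 11.51, 12.18 and 12.55 on 2.5SY in females, and rose by 0.62 ± 0.07 on 2.5SY (adjusted p = 2.76e-10). In males the 3 medians were 11.99, 11.76 and 11.99, and the male minus female difference of the contrast was -0.62 (adjusted p = 1.49e-12). GstO2 rose by 0.57 ± 0.04 in females (adjusted p = 1.45e-16) and by 0.41 ± 0.05 in males (adjusted p = 2.45e-08) at 1 of its probe sets, with female medians of 8.89 on 0.25SY, 8.98 on 1SY and 9.49 on 2.5SY and male medians of 9.18, 9.55 and 9.64. The other probe set of GstO2 differed by only 0.10 in females and 0.06 in males, so that the 2 probe sets disagree on the size. On 1SY against 0.25SY in females they disagree on the direction too, because 1 was called higher and the other lower. GstE14 rose by 0.48, Ugt37B1 by 0.40, GstE9 by 0.35 and Ugt316A1 by 0.34.

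Falls on 2.5SY in females were led by Ugt35C1 with a difference of -0.97, GstD8 with -0.91, GstZ2 with -0.76, Ugt37A2 with -0.71, Ugt37A3 with -0.68, Ugt303B1 with -0.67 and GstD7 with -0.62. GstE11 differed by -0.38 and GstS1 by -0.35, and GstD1 by 0.02 (adjusted p = 0.714). In males the richest food gave 8 higher and 7 lower members, against 7.14% and 4.48% (10 and 4 when centred, against 9.72% and 2.67%), and without the 3 old male arrays 12 were higher and 7 lower, against 9.50% and 7.37%. Ugt50B3 fell by 0.63 ± 0.14 in males (0.54 without those arrays), Ugt37A3 by 0.64, Ugt303B1 by 0.56, GstD7 by 0.29 and GstE13 by 0.27, and Ugt37C1 rose by 0.34 and Ugt317A1 by 0.25. The fall of Ugt35C1 by 0.26 in males passed with all arrays (adjusted p = 0.0492) and not without the 3 (adjusted p = 0.0526). In these males 5 of 11 accessory gland markers fell as well (median -0.69), or 10 of 11 (-0.41) without the 3 arrays, and 7 of 11 midgut markers fell in either case (-0.41 and -0.32). The contrast differed between the sexes for 23 members, 17 of them more positive in males, against 28.4% of all probe sets in either direction, and for 31 without the 3 arrays. Beside GstO3 the smallest p-values were those of GstZ2 (0.86 higher in males, adjusted p = 1.22e-10) and GstT4 (0.43, adjusted p = 6.93e-07). GstS1 was 0.26 higher (adjusted p = 0.0038).

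**Figure D3:**
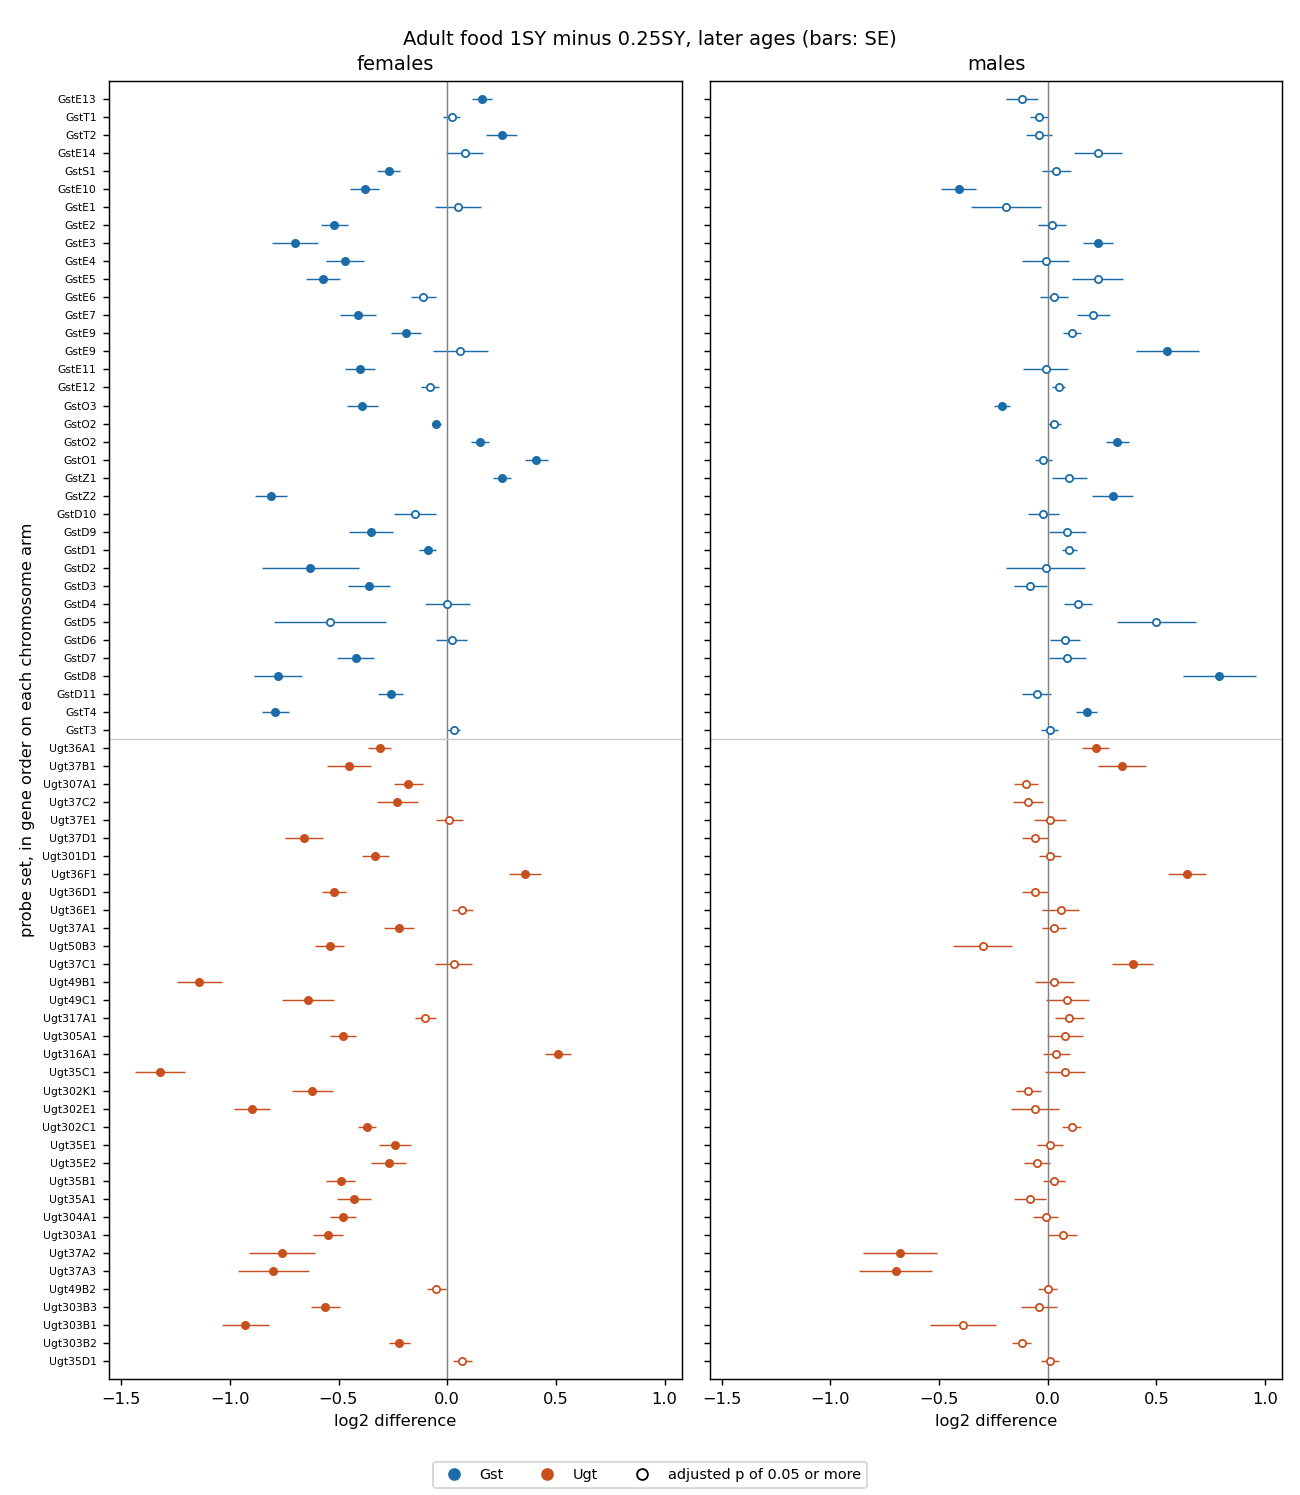
Difference between 1SY and 0.25SY adult food (log2) for the 71 member probe sets in gene order at the later ages, females and males in separate panels, as points with their SE; filled points passed an adjusted p of 0.05, blue is Gst and orange Ugt. In females the run from Ugt35C1 (-1.32) to Ugt303A1 lies wholly below 0 with filled points, while in males, with all arrays, its points are open and close to 0.

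In females the effect of adult food depended on age for 26 members, against 27% of all probe sets (among Gst 8 more positive and 5 less positive at old age on 2.5SY, or 7 and 7 when centred), and in males for 0, against 0.256%, with 15 members at an unadjusted p below 0.05 in males. On 1SY 45 members were lower at middle age in females and 7 higher, against 24% and 26.1% of all probe sets, and 29 and 5 at old age, against 17.4% and 23.7%. On 2.5SY the counts were 35 and 12 at middle age, against 22.1% and 25.4%, and 17 and 10 at old age, against 5.82% and 6.55%. GstO2 at its more responsive probe set had medians of 8.76, 8.96 and 9.56 on 0.25SY, 1SY and 2.5SY at middle age, where the lowest 2.5SY array (9.48) lay above the highest 0.25SY array (8.96), and of 8.97, 8.99 and 9.23 at old age, where the foods overlapped. Its rise on 2.5SY was 0.88 ± 0.06 at middle age and 0.25 ± 0.06 at old age (interaction adjusted p = 1.55e-06).

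Ugt49B1 fell by less on 1SY at old age than at middle age, and the 2.5SY difference of Ugt35B1 changed sign between the ages. Ugt49B1 had medians of 11.35, 9.50 and 10.00 on the 3 foods at middle age, when every 0.25SY array (10.46 to 11.71) exceeded every 1SY array (9.02 to 10.25), and of 10.17, 9.46 and 10.18 at old age. It fell on 1SY by 1.59 ± 0.15 at middle age (3.02-fold) and by 0.69 ± 0.15 at old age (interaction adjusted p = 9.59e-05). Ugt35B1 had medians of 10.39, 9.55 and 9.84 at middle age and of 9.46, 9.15 and 9.66 at old age, and on 2.5SY it differed from 0.25SY by -0.43 (adjusted p = 7.32e-05) at middle age and by 0.31 (adjusted p = 0.0155) at old age, with an interaction adjusted p of 3.3e-05. Larval food and adult food interacted for 2 members in females, GstT4 (adjusted p = 0.0447) and GstE2 (adjusted p = 0.039), against 3.60% of all probe sets, and for 0 in males, against 0.0213%, where 2 had an unadjusted p below 0.05. Larval food and age, within the later ages, interacted for 0 members in either sex, against 0% of all probe sets in females and 0.00533% in males, with 6 at an unadjusted p below 0.05 in females and 3 in males.

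Larval food was read most clearly at day 1. In 1-day-old females 37 members were called over the 3 larval foods. By the sign of 2.5SY minus 0.25SY, 29 of them were lower and 8 higher, against 19.0% and 22.2% of all probe sets. With centred arrays the split was 20 lower and 14 higher, against 14.5% and 35.0%. Among Gst probe sets 13 were lower and 7 higher (8 and 12 when centred), and among Ugt probe sets 16 were lower and 1 higher. Tested as pairs, 19 members were lower and 4 higher after 2.5SY than after 0.25SY. After 1SY 30 were lower and 8 higher than after 0.25SY. Shares of all probe sets for these pairs are not given here. In 1-day-old males 18 members were called over the 3 larval foods, 16 higher and 2 lower by the same sign, against 3.86% and 4.13%. As pairs, 9 were higher and 2 lower after 2.5SY than after 0.25SY, and 12 higher and 1 lower after 1SY. With blocks of serial numbers only 1 of the 18 was left (GstD8, adjusted p = 0.00106). Over omitted replicate numbers the male count ranged from 9 to 14. In females 30 were called with serial number blocks. No array is shared by these tests, and 8 probe sets were lower in females and higher in males, 3 higher in both and 1 lower in both. How often all probe sets were called jointly was not counted.

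In females, Ugt37D1 had lowest, median and highest values of 9.58, 9.86 and 10.11 after 0.25SY larval food, 8.80, 9.17 and 9.56 after 1SY and 8.87, 9.29 and 9.60 after 2.5SY. The 0.25SY arrays lay above all 1SY arrays and met the 2.5SY arrays at 1 end. Ugt37D1 differed by -0.61 on 2.5SY and -0.69 on 1SY (adjusted p = 1.28e-09), whereas male medians were 10.23, 10.22 and 10.24. GstO3 was lowest after the standard larval food, with medians of 11.13, 10.54 and 10.95 (differences of -0.64 on 1SY and -0.22 on 2.5SY, adjusted p = 9.85e-10). Ugt36D1 had medians of 10.15, 9.62 and 9.88 in females and 10.78, 10.83 and 10.84 in males. GstS1 was lower by 0.44 after 1SY and by 0.17 after 2.5SY (adjusted p = 3.28e-08), with female arrays of 13.94 to 14.19 after 0.25SY against 13.37 to 13.81 after 1SY, which did not overlap. GstO1 went the other way, from 10.43, 10.57 and 10.75 after 0.25SY to 10.83, 10.95 and 11.06 after 1SY, again without overlap, and 10.57, 10.77 and 10.85 after 2.5SY (adjusted p = 1.45e-08).

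Further female differences between 2.5SY and 0.25SY larval food were -0.48 for Ugt37A2, -0.37 for Ugt303A1, -0.34 for Ugt301D1 and for GstE2, -0.30 for GstE5 and -0.28 for the brighter probe set of GstE9, and 0.54 for GstD9, 0.22 for GstD1 and 0.23 for Ugt316A1. In males the delta class led, with 5 rises and 0 falls. Of the male calls given here only that of GstD8 was left with serial number blocks. GstD8 had values of 6.23, 6.55 and 6.90 after 0.25SY, 6.96, 7.49 and 7.92 after 1SY and 6.58, 7.02 and 7.40 after 2.5SY, so that the 0.25SY and 1SY arrays did not overlap. GstD8 differed by 0.92 on 1SY and 0.45 on 2.5SY (adjusted p = 1.73e-07), GstD10 by 0.48 and 0.39 (adjusted p = 0.000328), Ugt37A3 by 0.11 and 0.52 and Ugt36A1 by 0.25 and 0.27. GstE4 fell by 0.72 on 2.5SY (adjusted p = 0.0108), from a male median of 6.78 to one of 5.82. GstE9 at its brighter probe set had female medians of 11.63, 11.03 and 11.29 and male medians of 12.86, 13.09 and 13.00 after 0.25SY, 1SY and 2.5SY. Its dimmer probe set went the other way in females, where it was called over the 3 foods with a positive 2.5SY minus 0.25SY difference. In males it was not called.

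**Figure D4:**
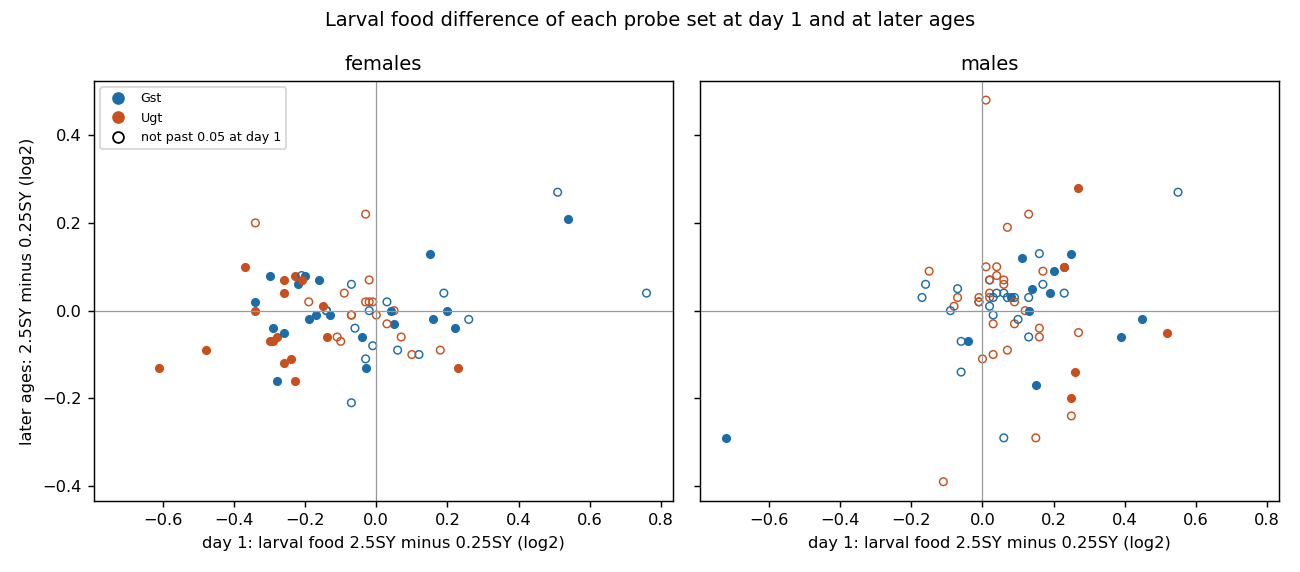
Difference between 2.5SY and 0.25SY larval food (log2) at day 1 (horizontal axis) and at the later ages (vertical axis) for the 71 member probe sets, females and males in separate panels; filled points passed an adjusted p of 0.05 over the 3 larval foods at day 1, blue is Gst and orange Ugt. In females 37 points are filled, with Ugt37D1 at -0.61 on the horizontal axis, and the points are spread less along the vertical axis.

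In later-age females 0 members were called for larval food, with 9 at an unadjusted p below 0.05, against 0.0639% of all probe sets. In later-age males 2 were called, against 0.272%: Ugt36F1, given above, and Ugt36A1, another Ugt36 gene of chromosome arm 2L, with a difference of 0.28 between 2.5SY and 0.25SY and 0.18 between 1SY and 0.25SY (adjusted p = 0.0465). Ugt36A1 had male medians of 7.96, 8.08 and 8.25 at middle age and 8.0, 8.19 and 8.38 at old age after the 3 larval foods, with overlapping ranges. Its call was lost with serial number blocks, without replicate 2 and without replicate 4, where 0 members were called. Without the 3 old male arrays 5 members were called, against 5.08% of all probe sets. A test of whether the larval food difference itself changed between day 1 and the later ages, added after the values had been seen, called 24 members in females, against 35.0%, and 2 in males, against 0.698%. The smallest p-values in females were those of Ugt36D1 (adjusted p = 2.26e-07), GstS1 (adjusted p = 8.97e-06) and GstO3 (adjusted p = 1.23e-05). A test of the difference between the sexes in the larval food effect at day 1 was also added later. It called 23 members, 20 of them more positive in males, against 24.3%. It was led by 1 probe set of GstE9 (adjusted p = 4.16e-07), GstE12 (adjusted p = 1.65e-06) and Ugt37D1 (adjusted p = 3.21e-05).

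In day 1 females muscle markers fell on 2.5SY larval food in 10 of 10 cases (median -0.19), eye and neuron markers in 7 of 8 and midgut markers in 5 of 11, and female germline markers rose in 9 of 12 (0.23). In day 1 males 4 of 5 antennal markers fell (-1.27), 5 midgut markers fell and 2 rose. Whether these tissues had a part in the members' larval food differences was not tested.

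At most a day of adult food was enough to move a smaller set. Over the 3 adult foods 21 members were called in 1-day-old females. Sorted only by the sign of their 2.5SY minus 0.25SY difference, 9 were positive and 12 negative, against 1.5% and 4.84% of all probe sets. A call over 3 foods can rest on another pair, so this split is not a count of changes on 2.5SY. GstO3 had female medians of 10.95 on 0.25SY, 10.85 on 1SY and 11.53 on 2.5SY, with overlapping ranges, and differed by 0.63 on 2.5SY (adjusted p = 1.03e-10). Ugt35C1 had values of 10.42, 10.82 and 11.26 on 0.25SY and of 8.89, 9.64 and 10.41 on 1SY, without overlap, and its differences were -1.17 on 1SY and -0.45 on 2.5SY (adjusted p = 2.44e-08). GstE3 differed by -0.55 on 1SY and by 0.38 on 2.5SY, Ugt303B1 by -0.81 and -0.68, and Ugt37A2 by -0.70 and -0.57. In 1-day-old males 2 members were called, against 2.14%: GstO3, with medians of 11.68, 11.60 and 11.77, and Ugt37C2, with 6.19, 5.94 and 6.0, and with serial number blocks 0 were called. The day 1 arrays and the later-age arrays are different pools of flies.

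Between the sexes 63, 63 and 58 of the 71 members were called at day 1, middle age and old age, beside 94.7%, 94.6% and 94.4% of all probe sets. At day 1, 37 of the 71 probe sets were higher in males and 26 lower, against 30.2% and 64.4% of all probe sets. The counts were 38 and 25 at middle age, against 28.6% and 65.9%, and 32 and 26 at old age, against 30% and 64.4%. The median male minus female difference of all probe sets was -0.27 at day 1 and -0.26 at both later ages. With every array centred on its median the counts became 25 higher and 43 lower at day 1, against 20.4% and 76.2% of all probe sets, 17 and 47 at middle age, against 17.9% and 78.7%, and 16 and 50 at old age, against 17.5% and 79.0%. Members called with the same sign in both settings numbered 51 at day 1 (25 higher, 26 lower), 42 at middle age (17 and 25) and 42 at old age (16 and 26). After quantile normalization over all arrays, the Ugt probe sets of day 1 split into 15 higher and 16 lower, from 17 and 12, and the Gst probe sets of middle age into 15 and 12, from 21 and 10.

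Ugt50B3 had the largest sex difference of all members. In females its lowest, median and highest values were 6.44, 8.09 and 8.54 at day 1, 7.15, 7.63 and 8.60 at middle age and 7.23, 7.67 and 8.40 at old age. In males they were 11.91, 12.22 and 12.46, then 10.98, 11.52 and 12.12, and then 7.61, 10.87 and 12.30. The sexes were separated at day 1 and middle age, and at old age only 1 male array reached the female range, at 7.61, the array labelled larval 0.25SY, adult 2.5SY, replicate 1 that had female marker levels, with the next lowest male array at 9.77. The difference of Ugt50B3 was 4.17 (18-fold) at day 1, 3.88 (14.7-fold) at middle age and 3.06 (8.33-fold) at old age, or 3.13 there without the 3 old male arrays.

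Ugt305A1 stood 2.87, 1.67 and 1.44 higher in males at the 3 ages, with female arrays of 5.54 to 6.55 and male arrays of 8.92 to 9.47 at day 1. GstD5 was 2.52, 1.52 and 1.99 higher and Ugt37B1 1.71, 1.89 and 1.56 higher in males. Female-biased members were led by Ugt316A1, with differences of -1.92, -1.35 and -1.48, female values of 10.68, 11.08 and 11.34 at day 1 and male values of 8.95, 9.17 and 9.30, which did not overlap. GstZ1 differed by -1.14, -0.94 and -0.94 and Ugt317A1 by -0.98, -1.25 and -0.84. GstE13 was lower in males by 1.20 at middle age and 1.31 at old age, and Ugt302E1 by 1.71 at day 1, when its female median was 7.68 and its male median 5.88. Ugt37A3 differed by -1.06 at middle age and -1.26 at old age. GstD1 differed by -0.22, 0.04 and 0.04, the later signs turning to -0.44 and -0.51 when arrays were centred.

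Without any overlap between male and female arrays, 11 members were higher in males at day 1 and 7 lower, among them GstE2, GstE12, GstT4, Ugt36D1 and Ugt35B1 on the higher side and GstE11, GstT1, GstO1 and GstZ1 on the lower side. At middle age 5 were separated upward (GstS1, Ugt36D1, Ugt50B3, Ugt305A1 and Ugt35B1) and 3 downward (GstE13, Ugt37C2 and Ugt317A1). At old age 0 were separated with all arrays, which include the old male array with female marker levels. These counts use uncentred values, so that their split into higher and lower depends on scaling. The share of all probe sets without overlap was not counted.

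**Figure D5:**
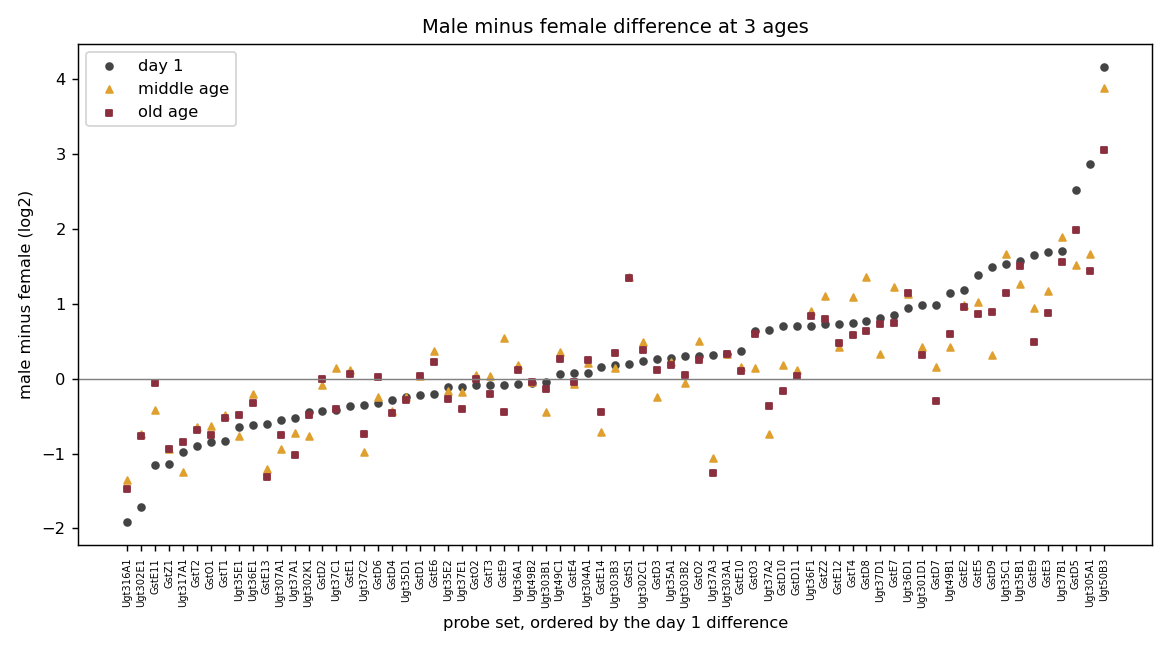
Male minus female difference (log2) of the 71 member probe sets at day 1, middle age and old age, ordered by the day 1 difference. Ugt50B3 has the largest value at each age (4.17, 3.88 and 3.06), Ugt316A1 the lowest at day 1 (-1.92), and GstS1 is near 0 at day 1 and at 1.36 and 1.34 afterwards.

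Other genes of glutathione supply, redox regulation, sugar-donor synthesis, export and sulfation were read from a list of 25, of which 20 had a probe set. On 1SY against 0.25SY in later-age females 5 of the 20 rose and 14 fell, beside 27.8% and 25.0% of all probe sets, and in males 4 rose and 2 fell, beside 4.37% and 3.91%. The age contrast called 4 up and 6 down in females, beside 24.2% and 21.1%, and 4 up and 5 down in males, beside 22.7% and 18.5%. Mdr50, an ABC transporter of the multidrug resistance type, fell with age by 1.42 ± 0.09 in females (adjusted p = 1.01e-19) and by 0.71 ± 0.06 in males (adjusted p = 1.3e-13), and its relative Mdr49 fell on 1SY by 0.95 ± 0.08 in females (adjusted p = 2.97e-15). The cytosolic sulfotransferase St4 rose on 1SY by 1.82 ± 0.27 in females (adjusted p = 2.22e-08), while St1 differed by -0.63 and St3 by -0.72. The male minus female difference of St4 was -3.56 at day 1. All 5 measured transporters of the list fell on 1SY in females (median -0.38), and in males 2 of them rose. From day 1 to middle age the counts were 15 up and 5 down in females, beside 25.7% and 35.3% of all probe sets, and 14 up and 3 down in males, beside 37.6% and 34.8%. In males cnc, the fly counterpart of the Nrf2 regulator of Gst genes, rose by 0.51 and its inhibitor Keap1 by 0.81. Larval food at day 1 gave 3 up and 7 down in females, beside 22.2% and 19.0%, and 2 up and 1 down in males, beside 3.86% and 4.13%, and 0 were called at the later ages in either sex.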

How the data were processed

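RNA of whole virgin flies was hybridised to 216 Affymetrix Drosophila 2.0 arrays (5 flies per array, 4 arrays in each of 54 groups), and groups and replicate numbers came from the labels. The deposited table holds log2 values that the authors made by robust multi-array average (RMA): background correction, quantile normalization and a summary per probe set, with no missing values. The methods describe this per sex after 2 female and 4 male arrays, which they do not name, had been left out. All 216 arrays were used here. Joint or separate normalization of the sexes in this table is not given in the sources used here, which bears on every male minus female difference. RMA gives no read depth, so that the number of arrays limits the precision, and dim probe sets lie near background.

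Of 18952 probe sets, 183 controls were left out and 18769 were tested. The platform annotation paired 13647 with 1 gene, 402 with several and 4720 with none, and 13544 symbols were updated to the Release 6 plus ISO1 MT annotation, used for names, chromosome arms and neighbours only.

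limma 3.58.1 in R 4.3.3 fitted larval food, adult food, age and all interactions to the 72 later-age arrays of each sex, as in the methods. Larval and adult food were fitted to the 36 day 1 arrays of each sex, group means to the 108 arrays of each sex for middle age against day 1, and group means to all 216 arrays for the sex contrasts. P-values were adjusted by Benjamini-Hochberg over all probe sets with a threshold of 0.05, and the code was tested on simulated data. Members named were, per comparison and family, up to 4 called rises and 4 called falls of the largest size, the 3 smallest p-values of an interaction, Ugt36F1, GstD1 and GstS1 throughout, and listed pathway genes called with a difference of at least 0.5; a few others were chosen after their values were seen. Members, lists, markers and alternatives were chosen with earlier results of these data known.

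Alternatives were unmoderated ANOVA statistics, probe sets of mean 5 or more, repeated quantile normalization, centring of arrays, array quality weights, a replicate block, blocks of 24 consecutive serial numbers of the arrays' descriptions, each replicate number left out, 1 probe set per gene, and the omission of the 3 old male arrays or of the 6 arrays of lowest weight. Arrays with the same replicate number did not deviate together (mean correlation 0.003 in females and -0.005 in males, against -0.001 and 0.003 for other numbers), and 0 pairs of arrays were identical.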

Additional observations from a re-analysis of the deposited data

Results flagged for a closer look

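In 9 of 108 combinations of family and group, 1 of the 4 arrays lay far from the other 3 in the mean log2 value of its family, where chance alone marks about 1 in 20. For Gst these were 1-day-old females of larval and adult 0.25SY, replicate 4 (9.20 against 9.15 in the others), 1-day-old males of larval and adult 2.5SY, replicate 4 (9.35 against 9.45 to 9.46), and old males of larval 0.25SY, adult 2.5SY, replicate 3 (9.74 against 9.63 to 9.65). For Ugt they were old females of larval 2.5SY, adult 1SY, replicate 1 (7.43 against 7.31 to 7.32), middle-aged males of larval 0.25SY, adult 2.5SY, replicate 2 (7.78 against 7.81 to 7.82), of larval 1SY, adult 0.25SY, replicate 4 (7.62 against 7.85 to 7.89) and of larval 2.5SY, adult 1SY, replicate 3 (7.79 against 7.89 to 7.90), and old males of larval 0.25SY, adult 1SY, replicate 4 (7.76 against 7.52 to 7.56) and of larval 2.5SY, adult 1SY, replicate 4 (7.72 against 7.65). The group of the third Gst array also holds the old male array with female marker levels.

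Some contrasts differed between ages or between the sexes by a test of the difference itself. Adult food by age in females passed for 26 members, with F values of 26.9 for GstO2, 19.1 for Ugt35B1, 16.6 for Ugt49B1 and 6.07 for Ugt36F1, and in males for 0, where 15 had an unadjusted p below 0.05. The change from middle to old age differed between the sexes for 32 members, with male minus female values of -0.51 for GstT4, 0.46 for GstO3 and -0.82 for Ugt50B3. The contrast of 2.5SY with 0.25SY differed for 23 members, by -0.62 for GstO3, 0.86 for GstZ2, 0.43 for GstT4 and 0.26 for GstS1. That of 1SY with 0.25SY differed for 50 members, by 0.97 for GstT4, 1.40 for Ugt35C1, 1.10 for GstZ2, 0.28 for Ugt36F1, 0.19 for GstD1 and 0.31 for GstS1.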

How the results depend on the processing

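Counts below are members called of 71. Under every alternative run on the female comparisons of age, adult food, middle age against day 1, and larval or adult food at day 1, and under every alternative run on the sex contrasts, the count stayed within 1.5 times the one reported, apart from omitted replicate numbers. The male food tests moved most. On 1SY against 0.25SY in later-age males 23 were called with array quality weights, 24 without the 3 old male arrays and 24 without the 6 arrays of lowest weight, in place of 14, and on 2.5SY 23 with weights and 8 with serial number blocks, in place of 15. Larval food at the later ages in males gave 1 when arrays were centred, 6 with weights, 1 with a replicate block, 0 with serial number blocks, 5 without the 3 arrays and 5 without the 6, in place of 2. Adult food by age in males gave 3 with weights, 1 without the 3 arrays and 2 without the 6, in place of 0, and in females 17 with serial number blocks, in place of 26. Larval by adult food in females gave 1 with unmoderated statistics, 1 with repeated quantile normalization, 1 with a replicate block, 0 with serial number blocks and 0 without the 6 arrays, in place of 2. At day 1 in males, larval food gave 1 with serial number blocks, in place of 18, and adult food 4 with weights, 1 with a replicate block and 0 with serial number blocks, in place of 2. The causes were not tested. The replicate numbers did not pair the arrays: 18 of 72 later-age female arrays and 14 of 72 male arrays correlated best with their own number.

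With each replicate number left out in turn, calls ranged from 39 to 45 for age in females and 38 to 44 in males, 46 to 54 and 7 to 15 for 1SY, 43 to 46 and 8 to 13 for 2.5SY, 0 to 0 and 0 to 2 for larval food at the later ages, 13 to 22 and 0 to 0 for adult food by age, 0 to 3 and 0 to 0 for larval by adult food, 55 to 57 and 54 to 57 for middle age against day 1, 26 to 36 and 9 to 14 for larval food at day 1, and 10 to 15 and 0 to 2 for adult food at day 1. The sex contrasts ranged from 61 to 62 at day 1, 60 to 63 at middle age and 57 to 59 at old age, and their interactions from 26 to 29 with age, 11 to 23 with 2.5SY and 36 to 43 with 1SY. These fits hold 3 arrays per group.

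Of the values of named members under the alternatives, 3486 kept their direction and side of the threshold, 26 gained and 164 lost a call, and 4 changed sign, all with centred arrays: GstD1 on 1SY in females (0.02), GstS1 between the sexes at day 1 (-0.26), and GstD1 between the sexes at middle age (-0.44) and old age (-0.51).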
